A study of Mus musculus with 6 samples.

Results

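The 10 genes described here encode the enzymes that write, copy and remove methyl groups on cytosine in mouse DNA: the methyltransferases Dnmt1, Dnmt3a and Dnmt3b, the catalytically inactive cofactor Dnmt3l, the hemimethylated-DNA binding proteins Uhrf1 and Uhrf2, the dioxygenases Tet1, Tet2 and Tet3, and the glycosylase Tdg. They were chosen by symbol from the 46983 genes counted, and all 10 were matched to 1 Ensembl identifier each. RNA sequencing libraries came from mouse embryonic fibroblasts of the C57BL/6 strain, from embryos of 14 days, at passage 16. There were 3 libraries labelled wild type and 3 labelled SphK2 null, all grown in DMEM with 10% FBS, antibiotics, pyruvate and added amino acids, with no treatment named. SphK2 is sphingosine kinase 2, a nuclear and mitochondrial enzyme that makes sphingosine-1-phosphate. The sources used here do not give how the null allele was made, nor whether replicates are separate embryos or cultures. The p-values therefore rest on a spread that may be technical.

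In mammalian DNA, methylation sits mostly on cytosines of CpG dinucleotides. DNMT3A and DNMT3B set the mark anew, with DNMT3L as a cofactor in germ cells and early embryos. UHRF1 recognises CpG sites methylated on only a single strand behind the replication fork and recruits DNMT1, which copies the mark to the new strand. TET enzymes oxidise methylcytosine, and TDG cuts out the more oxidised forms, which base excision repair then replaces with plain cytosine.

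Libraries held 15598566 to 23681718 counts in genes, and a count of 3 stood for 0.127 to 0.192 counts per 1000000 counts of the library (CPM). The targeted gene and the fibroblast markers bear on every comparison. Sphk2 itself was present in all libraries, with 654, 418 and 503 counts in those labelled wild type and 964, 883 and 921 in those labelled null, which goes against the direction that the label names (log2 fold change 0.87 ± 0.051 SE). Of its exonic bases, 20.8% overlap exons of Dbp or Rpl18, where reads are not assigned. The deposited counts sum all exons and do not show which part an allele lacks, so "null-labelled" below refers to the label. Whether the labels were swapped, which would reverse every direction given below, cannot be told from these counts. With or without a swap, the libraries of the null cells would hold Sphk2 counts. Of 14 fibroblast markers, all were lower in the null-labelled libraries, with a summed level of 15540 to 16010 CPM in wild-type-labelled and 3490 to 3530 CPM in null-labelled libraries, and Thy1 had 0 counts in the latter. Most of the null-labelled sum was Vim, at 3211 ± 17.9 CPM (SD, n = 3), while Col1a1 stood at 1.68 ± 0.210 CPM (SD, n = 3). The groups thus differed in fibroblast transcripts as well as in label, and the part of this in the differences below was not tested. In bulk RNA, fewer cells of a type and less RNA per cell cannot be told apart.

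The sequences before the start sites of the genes with the largest differences are shown because the products of these genes act on CpG. Capitals mark each CpG in the 250 bases before a RefSeq start site (GRCm38.p6), read 5′ to 3′ on the gene's strand, for windows free of annotated exons.
Dnmt3a, chr12:3806730-3806979, plus strand: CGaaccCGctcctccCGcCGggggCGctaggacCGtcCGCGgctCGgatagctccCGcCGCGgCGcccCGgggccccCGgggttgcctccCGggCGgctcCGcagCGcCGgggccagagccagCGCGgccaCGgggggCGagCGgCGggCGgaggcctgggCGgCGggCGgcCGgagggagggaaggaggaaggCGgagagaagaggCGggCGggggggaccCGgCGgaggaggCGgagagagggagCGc
Dnmt3b, chr2:153649199-153649448, plus strand: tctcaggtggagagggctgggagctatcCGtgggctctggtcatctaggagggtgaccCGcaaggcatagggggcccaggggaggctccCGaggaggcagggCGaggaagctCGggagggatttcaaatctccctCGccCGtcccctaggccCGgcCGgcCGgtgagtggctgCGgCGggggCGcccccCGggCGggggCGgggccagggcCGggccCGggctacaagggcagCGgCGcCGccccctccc
Dnmt3l, chr10:78049592-78049841, plus strand: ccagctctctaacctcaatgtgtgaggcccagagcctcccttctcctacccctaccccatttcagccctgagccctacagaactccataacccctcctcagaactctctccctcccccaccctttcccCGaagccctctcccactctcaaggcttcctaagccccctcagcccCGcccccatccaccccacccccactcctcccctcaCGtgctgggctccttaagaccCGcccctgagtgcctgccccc
Dnmt3l, chr10:78055085-78055334, plus strand: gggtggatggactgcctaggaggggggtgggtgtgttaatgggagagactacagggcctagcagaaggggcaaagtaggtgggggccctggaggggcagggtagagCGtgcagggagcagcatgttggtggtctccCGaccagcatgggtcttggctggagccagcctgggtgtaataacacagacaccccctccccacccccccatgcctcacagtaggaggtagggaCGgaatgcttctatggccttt
Tet1, chr10:62887325-62887574, minus strand: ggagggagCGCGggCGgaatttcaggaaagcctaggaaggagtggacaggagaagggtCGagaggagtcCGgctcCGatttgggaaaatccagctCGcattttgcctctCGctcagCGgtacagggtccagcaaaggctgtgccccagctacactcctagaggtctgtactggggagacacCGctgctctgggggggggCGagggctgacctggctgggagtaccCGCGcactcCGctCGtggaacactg
The Dnmt3a window holds 38 CpG and the Dnmt3b window 21, more than 98.1% and 83.6% of the 32841 promoter windows of the same length. The Dnmt3l windows hold 4 and 3 CpG, more than 37.8% and 29.0% of all windows, where the median is 6. The Tet1 window holds 15, more than 72.7%. No DNA methylation was measured in this series, so these letters say what the enzymes could act on and nothing of the state of these sites.

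The de novo methyltransferases were higher in the null-labelled libraries by about the same factor, while their cofactor was nearly lost. Of the 10 members, 9 passed an adjusted p under 0.05, 3 of them higher and 6 lower with the null label. Of all 15199 genes tested, 79.2% passed, 38.1% higher and 41.1% lower, so the members' count is near that background. The CPM of the groups did not overlap for 9 members and for 79.9% of all genes. Past the test and over 2-fold were 4 members (Dnmt3a, Dnmt3b, Dnmt3l and Tet1), against 26.2% of all genes, and the same 4 were over 4-fold, against 14.9%. The median log2 fold change of the members was -0.22, and of all genes -0.02. Regardless of sign, the median size was 0.46 for the members and 0.47 for all genes.

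**Figure D1:**
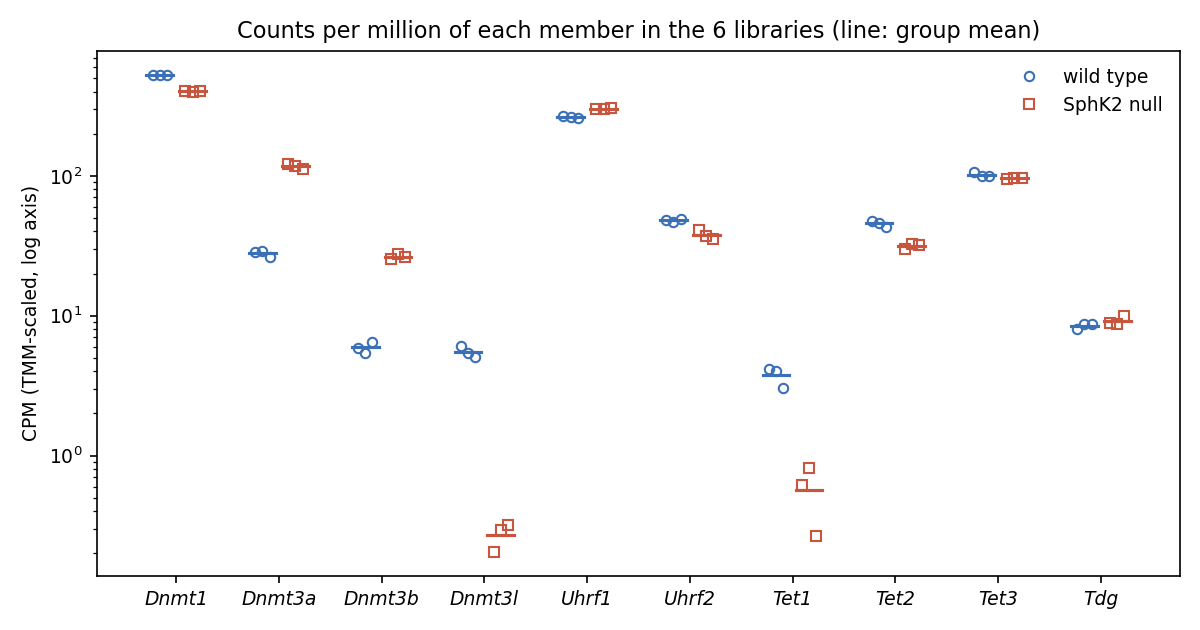
CPM of each member (log axis) in the 3 wild-type-labelled (circles) and 3 null-labelled (squares) libraries, with a line at the group mean. Dnmt3a and Dnmt3b sit higher and Dnmt3l and Tet1 lower in the null-labelled libraries, and Tdg is the only member whose groups overlap.

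Dnmt3a (ENSMUSG00000020661, mm10 chromosome 12, 3806007 to 3914443, plus strand) stood at 28.7, 29.2 and 26.3 CPM in the wild-type-labelled and 120.9, 117 and 112 CPM in the null-labelled libraries. Every null-labelled library lay above every wild-type-labelled one. The log2 fold change was 2.06 ± 0.044 SE, a 4.16-fold rise, and the adjusted p from edgeR's quasi-likelihood test was too small for double precision (0 as written). The gene makes a long and a short protein from separate start sites, which counts over the whole gene do not tell apart.

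Dnmt3b (ENSMUSG00000027478, chromosome 2, 153649450 to 153687730, plus strand) stood at 5.89, 5.45 and 6.44 CPM in the wild-type-labelled and 25.3, 27.7 and 26.4 CPM in the null-labelled libraries. It rose 4.43-fold (log2 fold change 2.15 ± 0.084 SE, edgeR adjusted p = 4.73e-144), and the groups did not overlap. This enzyme is known for methylating repeats near centromeres and is usually most abundant in early embryos. Its rodent relative Dnmt3c, known from the male germ line, had 0 counts in each wild-type-labelled library and 10, 12 and 13 in the null-labelled ones, at least 12.1-fold higher against 3 counts over the group at 0. Dnmt3c was named after its values were seen and was too low to be tested. Of the 51-base words (the read length) in Dnmt3b transcripts, 9.63% also occur in Dnmt3c, and reads that map equally well to both may be counted for neither.

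Dnmt3l (ENSMUSG00000000730, chromosome 10, 78041947 to 78063622, plus strand) went the other way. It had 141, 83 and 96 counts in the wild-type-labelled and 4, 5 and 6 in the null-labelled libraries. As levels these were 6.07, 5.45 and 5.03 CPM against 0.205, 0.292 and 0.320 CPM. The fall was 20.01-fold (log2 fold change -4.32 ± 0.25 SE, edgeR adjusted p = 7.08e-64), with a 95% interval of the log2 fold change from -4.82 to -3.82. All null-labelled libraries stood under 0.533 CPM, the level that the filter on low counts asks of 3 libraries, so that Dnmt3l entered the test through its wild-type-labelled libraries alone. DNMT3L binds DNMT3A and DNMT3B and stimulates them, and is usually silent in differentiated somatic cells.

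Within a library, the share of each enzyme does not depend on how libraries are scaled. Levels were therefore also set per length, as RPKM, that is CPM per kilobase of exon. The summed level of Dnmt3a and Dnmt3b went from 2.85 ± 0.031 to 12.2 ± 0.275 RPKM (SD, n = 3), a ratio of 4.28. Of the summed RPKM of Dnmt1, Dnmt3a and Dnmt3b, Dnmt3a took 1.99%, 2.05% and 1.82% in the wild-type-labelled and 9.52%, 9.32% and 8.88% in the null-labelled libraries. Dnmt3b took 1.33%, 1.24% and 1.45% and then 6.48%, 7.18% and 6.81%. Dnmt1 thus made up 96.7% ± 0.025 of the trio in wild-type-labelled and 83.9% ± 0.411 in null-labelled libraries (SD, n = 3). For each of these 3 shares the exact two-sided permutation p was 0.1, the smallest that 3 against 3 libraries allow. The balance within the de novo pair moved by less than the spread: Dnmt3b took 40.8% ± 3.35 of Dnmt3a and Dnmt3b together in the wild-type-labelled and 42.5% ± 1.70 in the null-labelled libraries (SD, n = 3, exact permutation p = 0.6). Across the 8 shares computed, 7 gave the smallest p possible, and none can pass 0.05.

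**Figure D2:**
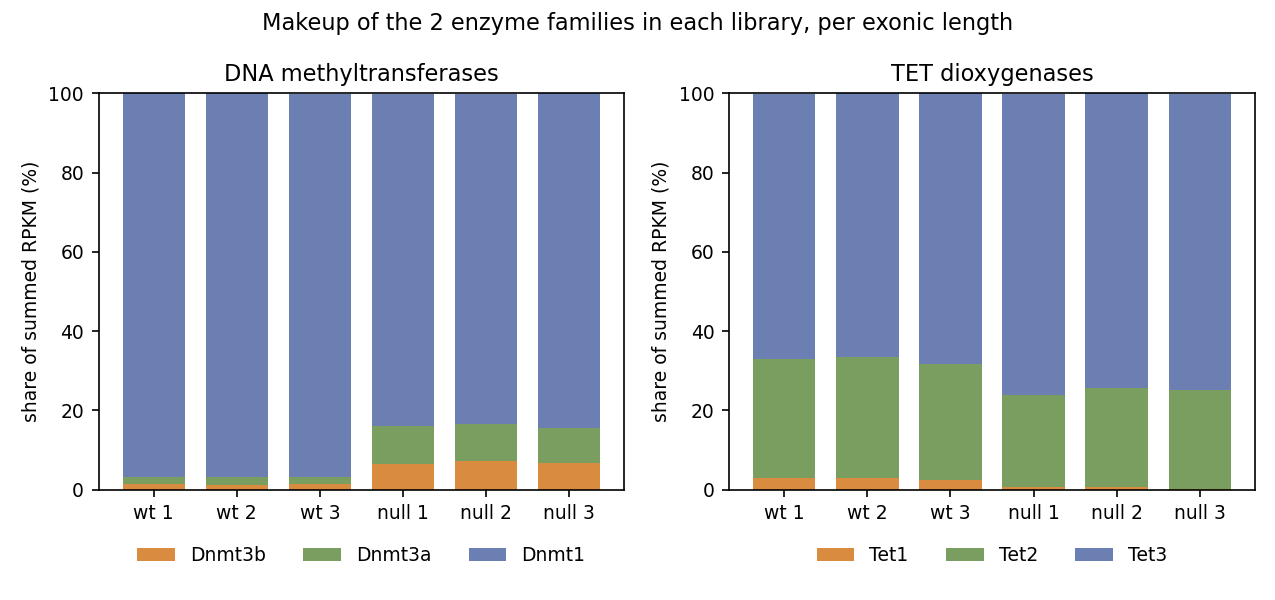
Stacked bars of the share (%) of the summed RPKM that each enzyme takes in each library, for the methyltransferases (left) and the TET dioxygenases (right). Dnmt3a and Dnmt3b take more and Dnmt1 less in the null-labelled libraries, and Tet3 takes more at the cost of Tet1 and Tet2.

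Maintenance genes differed less, and not all in the same direction. Dnmt1 (ENSMUSG00000004099, chromosome 9, 20907206 to 20959888, minus strand) stood at 528, 523 and 529 CPM in the wild-type-labelled and 404.0, 397 and 403 CPM in the null-labelled libraries. The groups did not overlap, and the difference on the log2 scale was -0.39 ± 0.023 (SE, edgeR adjusted p = 2.48e-62), a 1.31-fold fall. Uhrf1 (ENSMUSG00000001228, chromosome 17, 56303321 to 56323486, plus strand), which brings DNMT1 to replicated DNA, stood at 266, 264 and 258 CPM against 300.2, 299 and 303 CPM. This small rise (log2 fold change 0.20 ± 0.025 SE, edgeR adjusted p = 1.79e-14) was larger than the spread between libraries. Its 51-base words are shared with other genes in 15.1% of cases, mostly with the predicted gene Gm5648, so part of its reads may not have been counted.

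Per exonic length, the order of this pair turned over between the groups. On that scale, Dnmt1 was the most abundant member in the wild-type-labelled libraries, at 83.5 ± 0.548 RPKM, ahead of Uhrf1 at 61.7 ± 1.07 RPKM (SD, n = 3). In the null-labelled libraries Uhrf1 led, at 70.6 ± 0.572 RPKM, ahead of Dnmt1 at 63.7 ± 0.591 RPKM (SD, n = 3). As a ratio within each library, Uhrf1 over Dnmt1 was 0.746, 0.748 and 0.721 in the wild-type-labelled and 1.10, 1.11 and 1.11 in the null-labelled libraries. The turn of the order depends on the division by 6304 exonic bases for Dnmt1 and 4259 for Uhrf1: in CPM, Dnmt1 stood above Uhrf1 in every library, at 527 against 263 CPM on average with the wild type label and 401 against 301 CPM with the null label. The change of the ratio between the groups does not depend on length.

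Uhrf2 (ENSMUSG00000024817, chromosome 19, 30030513 to 30093722, plus strand), a paralogue of Uhrf1 that does not replace it in maintenance, fell. It stood at 48.6, 46.4 and 48.9 CPM against 40.8, 37.3 and 35.1 CPM, with a log2 fold change of -0.35 ± 0.048 (SE, edgeR adjusted p = 1.11e-12). Its share of the summed RPKM of the pair went from 8.31% ± 0.299 to 5.86% ± 0.445 (SD, n = 3, exact permutation p = 0.1).

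The TET genes were lower in the null-labelled libraries by very different amounts. Tet1 (ENSMUSG00000047146, chromosome 10, 62804570 to 62899118, minus strand), known from embryonic stem cells and germ cells, had 97, 61 and 58 counts in the wild-type-labelled and 12, 14 and 5 in the null-labelled libraries. Its levels were 4.17, 4.002 and 3.04 CPM against 0.615, 0.818 and 0.267 CPM, so that the lowest wild-type-labelled library was well above the highest null-labelled one. It fell 6.62-fold (log2 fold change -2.73 ± 0.24 SE, edgeR adjusted p = 6.15e-29). Tet2 (ENSMUSG00000040943, chromosome 3, 133463679 to 133545139, minus strand), the member best known from blood cells, fell 1.45-fold, from 47.8, 46.2 and 42.9 CPM to 29.8, 32.7 and 32.2 CPM (log2 fold change -0.54 ± 0.051 SE, edgeR adjusted p = 8.47e-26).

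Tet3 (ENSMUSG00000034832, chromosome 6, 83362373 to 83459084, minus strand), known for its role in the zygote, was the most abundant TET gene in every library. It stood at 106, 99.9 and 99.4 CPM in the wild-type-labelled and 95.5, 96.3 and 95.6 CPM in the null-labelled libraries. The difference was small, with a log2 fold change of -0.09 ± 0.035 (SE, edgeR adjusted p = 0.0125). It rested on wild-type-labelled replicate 1, without which the edgeR adjusted p was 0.148 (log2 fold change -0.06), and DESeq2 gave an adjusted p of 0.0508.

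Per length, the TET genes together went from 9.06 ± 0.386 to 7.65 ± 0.119 RPKM (SD, n = 3). Tet3 made up 67.3% ± 0.963 of that sum in the wild-type-labelled and 75.04% ± 0.866 in the null-labelled libraries, and Tet2 29.9% ± 0.615 and 24.5% ± 0.870 (SD, n = 3). Tet1 took 2.80% ± 0.369 and 0.503% ± 0.244 (SD, n = 3). Dnmt3a stood below Tet2 in every wild-type-labelled library, at 0.609, 0.640 and 0.621 of its RPKM, and above it in every null-labelled library, at 4.12, 3.63 and 3.53 times its RPKM.

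Tdg (ENSMUSG00000034674, chromosome 10, 82629828 to 82650799, plus strand), the glycosylase that acts after the TET enzymes, is the member that did not pass the test. It stood at 8.002, 8.73 and 8.74 CPM against 8.86, 8.64 and 9.97 CPM, and the groups overlapped. The log2 fold change was 0.12 ± 0.10 (SE, edgeR adjusted p = 0.273), with a 95% interval from -0.08 to 0.31, which covers ratios from 0.947 to 1.24. Of its 51-base words, 40.9% also occur in other genes, among them the pseudogene Tdg-ps, and 367 of its 5374 exonic bases (6.83%) overlap exons of Glt8d2 on the other strand. Its level may therefore be underestimated, and its place among the members per length is uncertain.

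**Figure D3:**
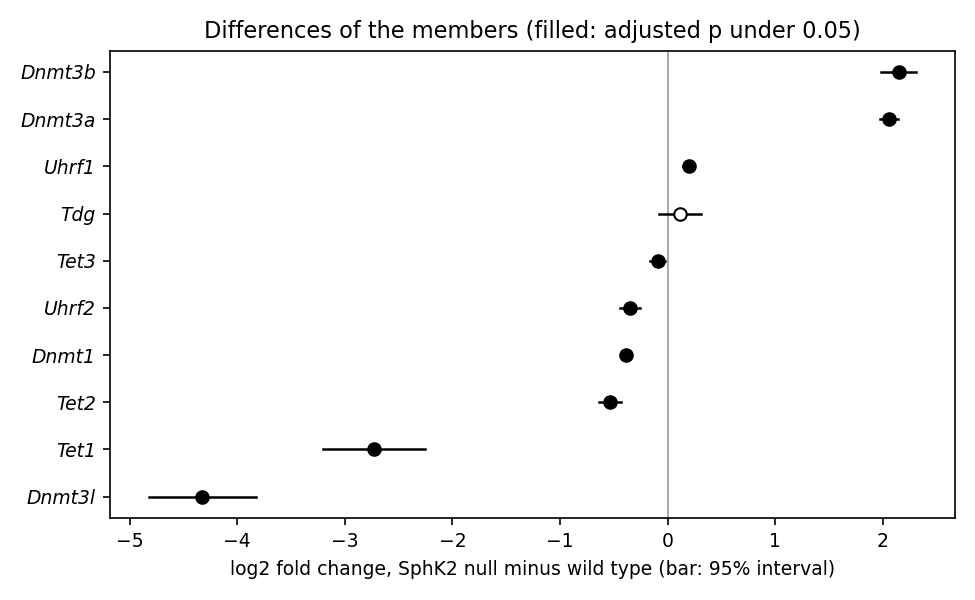
Log2 fold change of each member, null-labelled minus wild-type-labelled, with its 95% interval (bar) and filled points where the adjusted p is under 0.05. Dnmt3b and Dnmt3a lie near 2, Dnmt3l and Tet1 at -4.32 and -2.73, and the other 6 members between -0.54 and 0.20.

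Ordered per length, Tet3 followed Dnmt1 and Uhrf1 in the wild-type-labelled libraries at 6.10 ± 0.222 RPKM, then Uhrf2 at 5.58 ± 0.160, Tet2 at 2.71 ± 0.147, Dnmt3l at 1.84 ± 0.175, Dnmt3a at 1.69 ± 0.094, Tdg at 1.58 ± 0.079, Dnmt3b at 1.16 ± 0.097 and Tet1 at 0.254 ± 0.042 RPKM (SD, n = 3). The libraries of Dnmt3l and Dnmt3a overlapped in level, as did those of Dnmt3a and Tdg. In the null-labelled libraries, Dnmt3a rose to the third place at 7.02 ± 0.262 RPKM, ahead of Tet3 at 5.74 ± 0.025, Dnmt3b at 5.18 ± 0.238, Uhrf2 at 4.39 ± 0.335, Tet2 at 1.87 ± 0.093 and Tdg at 1.70 ± 0.132 RPKM, where only Tet2 and Tdg overlapped (SD, n = 3). Dnmt3l and Tet1 came last, at 0.091 ± 0.020 and 0.038 ± 0.019 RPKM (SD, n = 3). These orders depend on the exonic length, which covers all annotated exons of a gene, 16642 bases for Dnmt3a and 5106 for Dnmt3b. In CPM, Dnmt3a averaged 117 and Dnmt3b 26.4 in the null-labelled libraries. Dnmt1 and Uhrf1 stood above 93.7% of all tested genes in RPKM in both groups.

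By the distance of centred log2 CPM over the 6 libraries, the 3 profiles closest to Dnmt3b, the member with the largest rise, were those of Piwil2 (log2 fold change 2.09 ± 0.047 SE), Star (2.12 ± 0.11 SE) and Cd9-ps (2.07 ± 0.069 SE). Piwil2 encodes a PIWI protein of germ cells. Those closest to Dnmt3l, the member with the largest fall, were 3110039I08Rik (-3.92 ± 0.045 SE), Ankrd44 (-3.93 ± 0.084 SE) and Hopx (-3.89 ± 0.066 SE). The log2 CPM used for these distances carried a prior count of 2, which shrinks differences of genes with few counts. The profile of Dnmt3l, with 4, 5 and 6 null-labelled counts, therefore fell by less than its fitted log2 fold change of -4.32. The distances were 0.134 to 0.176 and 0.198 to 0.303 log2 units, and since the libraries form only 2 groups, such likeness is mostly the size of the difference between them.

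Among 16 tested partners that target or maintain methylation, 5 rose and 9 fell (median log2 fold change -0.09). The largest difference was in Nsd1, a histone methyltransferase whose mark is bound by DNMT3A, which fell from 115 ± 6.12 to 7.67 ± 0.922 CPM (SD, n = 3). Log2 fold changes were -0.74 ± 0.051 (SE) for Dmap1, a partner of DNMT1, and -0.60 ± 0.033 (SE) for Setdb1, a histone H3 methyltransferase of silent chromatin. Of 10 genes for readers of methylated CpG and for relatives of these readers (Mbd3, Mbd5 and Mbd6), 7 were higher and 2 lower (median 0.21). The 2 lower were the relatives Mbd3 (log2 fold change -0.10 ± 0.030 SE) and Mbd6 (-0.28 ± 0.047 SE). Mbd4, a reader that is also a glycosylase, rose by 0.72 ± 0.072 (SE) on the log2 scale, and the zinc finger readers Zbtb4 and Zbtb38 had 0.41 ± 0.060 and 0.32 ± 0.042 (SE).

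Of 8 CXXC-domain genes, whose products bind unmethylated CpG, 4 were higher and 3 lower (median 0.05). Cxxc4, whose product has been tied to the turnover of TET2 protein, summed to 220 counts with the wild type label and 0 with the null label, at least 70.5-fold lower against 3 counts over the group. The histone methyltransferase Kmt2a rose (0.80 ± 0.045 SE on the log2 scale) and Fbxl19 fell (-0.63 ± 0.047 SE). A list of 15 tested genes joined base excision repair, which completes demethylation after TDG, with Gadd45a, Gadd45b and Gadd45g, which are not repair enzymes. Of the 15, 9 were higher and 5 lower (median 0.31), and Gadd45a, Gadd45b and Gadd45g were all among the higher. The gap-filling polymerase Polb had a log2 fold change of 1.03 ± 0.063 (SE), Gadd45g 0.71 ± 0.079 (SE) and the endonuclease Apex1 -0.69 ± 0.051 (SE). Of 3 tested genes of the cytosine deaminase family, Apobec3 (-1.76 ± 0.064 SE) and Apobec1 (-0.86 ± 0.11 SE) fell, and 1, Apobec2, rose at a level under 1 CPM.

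Genes around the substrates of these enzymes went both ways. Of 11 tested genes around the TET cofactor 2-oxoglutarate and TET partners, 6 were higher and 5 lower (median 0.08). Idh1, the cytosolic isocitrate dehydrogenase that makes 2-oxoglutarate, fell by 1.04 ± 0.037 (SE) on the log2 scale. D2hgdh, which oxidises the analogue D-2-hydroxyglutarate, had a value of -0.58 ± 0.11 (SE). Of 17 tested genes of the S-adenosylmethionine and folate cycles, which make and spend the methyl donor, 8 were higher and 5 lower (median 0.02). Nnmt, which spends the donor on nicotinamide, had 1.61 ± 0.17 (SE) and Ahcyl2 1.46 ± 0.044 (SE).

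Most of 20 germline genes known to be silenced by promoter methylation in somatic cells stayed at or near 0 in both groups. Only 5 passed the filter on low counts, 3 higher and 2 lower. Rhox5, a homeobox gene, stood at 325 ± 2.64 against 558 ± 17.1 CPM (SD, n = 3). Tex19.1 stood at 84.2 ± 0.772 against 123 ± 0.838 CPM (SD, n = 3), so Rhox5 and Tex19.1 were not silent in either group. The third higher gene, Taf7l, was under 1 CPM. Brdt, a bromodomain gene of the testis, fell from 9.06 ± 0.270 to 2.34 ± 0.476 CPM (SD, n = 3). The meiotic cohesin gene Stag3 had 592 counts against 1, a ratio of 569.5 with an exact binomial 95% counting interval of 102 to 22530. Dazl, Mael, Hormad1, Mov10l1, Slc25a31, Asz1 and Stk31 had 0 counts in every wild-type-labelled library, and in the null-labelled ones Dazl and Slc25a31 had 1 count each and the other 5 had 0.

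**Figure D4:**
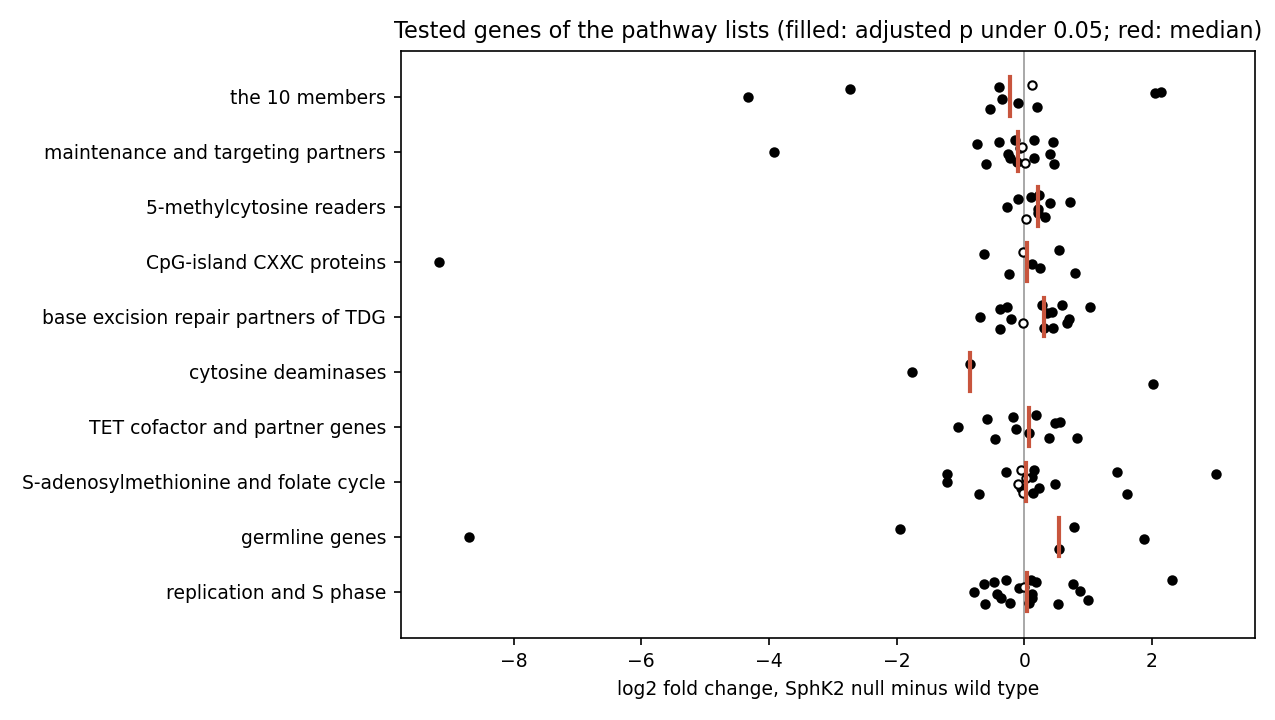
Log2 fold change (null-labelled minus wild-type-labelled) of each tested gene of the members and the 9 pathway lists, filled where the adjusted p is under 0.05, with the median of each list in red. The medians lie between -0.22 and 0.31 except for the deaminase family (-0.86) and the germline genes (0.55). The points at the far left are Cxxc4 and Stag3, whose fitted values rest on 0 and 1 counts and depend on the prior count.

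Dnmt1 and Uhrf1 are transcribed mostly in S phase, so genes of replication were read beside them. Of 20, 10 were higher and 9 lower (median 0.04, against -0.02 for all genes). E2f2, which drives genes of DNA synthesis, had a log2 fold change of 2.31 ± 0.048 (SE). Cdt1, which licenses origins, had 1.00 ± 0.028 (SE) and the helicase subunit Mcm5 0.87 ± 0.024 (SE). Among the 9 lower genes, E2f1 had -0.37 ± 0.039 (SE), the helicase subunit Mcm4 -0.78 ± 0.025 (SE) and Gins2 -0.63 ± 0.050 (SE). The proliferation marker Mki67 fell with Dnmt1, from 623 ± 11.8 to 407 ± 8.87 CPM (SD, n = 3). The part of cell cycle differences in the levels of Dnmt1 and Uhrf1 was not tested.

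Markers of pluripotent and germ cells, in which Dnmt3b, Dnmt3l or Tet1 are usually high, were also read. Trophoblast, epithelial, endothelial and blood markers were read beside them. Of 14 pluripotent and germ cell markers, 5 were tested, 2 higher and 3 lower, with a summed level of 207 to 209 CPM in the wild-type-labelled and 93.7 to 102 CPM in the null-labelled libraries. Sox2 fell from 112 ± 0.568 to 0.093 ± 0.071 CPM (SD, n = 3), in the same direction as Dnmt3l and Tet1, and carried the difference in the sum. The other 13 markers together stood at 94.7 to 97.0 CPM and 93.7 to 101 CPM, which overlap. Among them, Dppa4 (log2 fold change 0.40 ± 0.058 SE) and Tfcp2l1 (2.19 ± 0.44 SE, under 1 CPM) rose, and Klf4 (-0.10 ± 0.041 SE) and Prdm1 (-1.11 ± 0.29 SE) fell, while Zfp42, Dppa5a, Utf1, Prdm14 and Kit had 0 counts in all libraries. Pou5f1 and Nanog were under 0.5 CPM on average in both groups. Of 12 trophoblast markers, 6 were tested, 3 higher and 3 lower, with a sum of 129 to 133 and then 411 to 438 CPM, most of it Krt8. The largest difference was in Hand1, which rose from 0.136 ± 0.034 to 20.05 ± 0.213 CPM (SD, n = 3). Krt7 rose as well (log2 fold change 4.44 ± 0.51 SE, to 1.27 CPM). Gata2 (-1.58 ± 0.085 SE), Krt18 (-2.03 ± 0.36 SE) and Eomes (-3.06 ± 0.48 SE) fell. Cdx2 had 0 counts in all libraries. The sums of the 11 epithelial, 8 endothelial and 8 blood markers were 1.57 to 2.20, 2.02 to 2.77 and 19.4 to 21.1 CPM in wild-type-labelled and 3.85 to 5.02, 3.89 to 4.96 and 8.12 to 8.42 CPM in null-labelled libraries. Most of the blood sum was Cd14, at 16.05 ± 0.937 and then 4.84 ± 0.361 CPM (SD, n = 3), while Ptprc averaged 0.132 and 0.196 CPM. Among the epithelial markers, Ovol1 rose from 0.530 ± 0.144 to 2.39 ± 0.303 CPM (SD, n = 3), while Cdh1 averaged 0.38 CPM in both groups. The part of all these markers in the members' differences was not tested.

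All 10 members had a RefSeq promoter, with 17 windows of 250 bases in all. Tet2 had the most CpG, 51, more than 99.9% of windows, and the 3 Dnmt3l windows had 3 to 5. In these windows, 4 motifs were searched on both strands. The E2F words TTTGGCGC or TTTCGCGC occur in 0.65% of all windows, and TTTCGCGC was found in a window of Dnmt1 and a window of Uhrf1. The cAMP response word TGACGTCA (1.55% of windows) was found before Tdg, the NRF1 motif (0.78%) before none, and CCAAT (33.9%) before Dnmt1, Uhrf1, Tet3 and Tdg. These are matches of letters only, and binding was not measured.

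**Figure D5:**
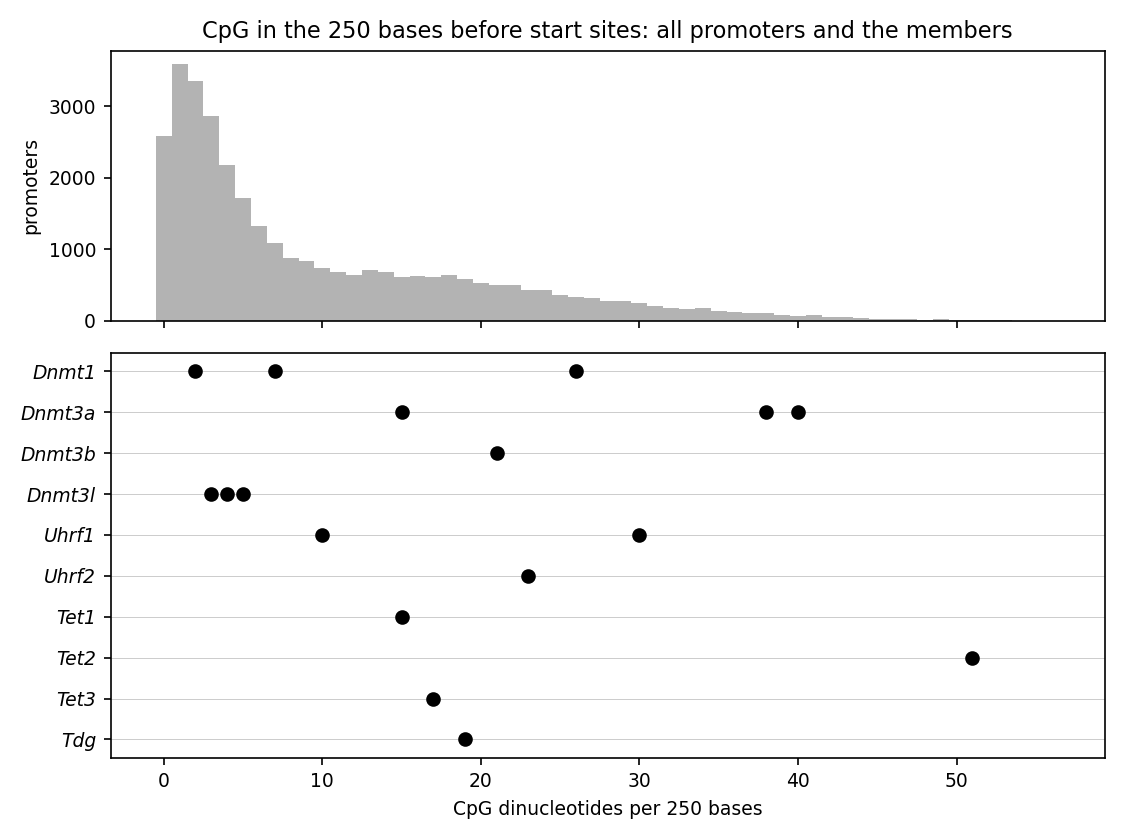
Number of CpG per 250 bases before start sites, as a histogram of all 32841 windows (top) and for each window of each member (bottom). The Dnmt3l windows sit at 3 to 5 and those of Dnmt3a at 15, 38 and 40.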

How the data were processed

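The authors deposited raw gene counts, 1 file for each library: whole reads over the exons of each Ensembl gene. Per the file headers, the counting used featureCounts 1.6.2 on an Ensembl release 83 annotation of GRCm38 with mm10 chromosome names. No strand, multimapping or overlap option was set, so by the program's defaults reads marked as mapping to several places, or lying over exons of more than 1 gene, are not counted. The labels' protocol gives single reads of 51 bases, while the header's command has the option for read pairs. Tools named in the submitters' processing notes are FastQC 0.11.2, Trimmomatic 0.33, featureCounts 1.2.6 (another version than in the headers) and Subread 1.6.2.

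Here, genes were filtered with filterByExpr, given TMM factors, and compared in edgeR 4.0.16 in R 4.3.3 (quasi-likelihood, robust, 3 against 3, no covariate), with Benjamini-Hochberg adjustment over all 15199 genes and a threshold of 0.05. All 10 members passed the filter, Dnmt3l through its wild-type-labelled libraries alone, and Tet1 with 2 null-labelled libraries that reach it. CPM and RPKM use TMM-scaled totals and the files' exonic length. The SE is the log2 fold change over the square root of F. Symbols were matched by identifier for 46488 of 46983 genes, and 1 listed gene through a RefSeq synonym. Shared 51-base words were counted in GENCODE M21 transcripts, a later annotation of the same build.

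Named were all members, Sphk2, up to 3 genes of each pathway list with the largest difference (adjusted p under 0.05, average log2 CPM of at least 1), and the 3 genes (average log2 CPM of at least 3) closest in profile to the members with the largest rise and fall. Of the genes this rule names, 2 are not reported here. Other names were chosen after their values were seen. Members and lists were chosen with earlier results of these data known. Alternatives were RLE size factors, DESeq2 1.42.0, no filter, over 1 CPM in 3 libraries, a replicate block and leaving out each library. Counting intervals cover counting error only.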

Additional observations from a re-analysis of the deposited data

How the results depend on the processing

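Of the 10 members, Dnmt1, Dnmt3a, Dnmt3b, Dnmt3l, Uhrf1, Uhrf2, Tet1 and Tet2 kept their direction and stayed past the threshold under all 11 alternatives, and Tdg stayed short of it. Tet3 lost its call with DESeq2 (log2 fold change -0.10, adjusted p = 0.0508) and without wild-type-labelled replicate 1 (-0.06, edgeR adjusted p = 0.148), and its adjusted p ranged from 0.00205 to 0.148 over the alternatives. The cause was not tested. The members called were thus 8 or 9, and the genes called over the whole table ran from 11388 to 13314. Without 1 library each, 11749 to 11948 genes were called. Of the pathway counts, 2 moved by over 1.5 times. No gene of the deaminase family (0) was higher at over 1 CPM in 3 libraries, since Apobec2 was then not tested. With no filter on low counts, where more genes were tested, 8 genes of the S-adenosylmethionine and folate cycles were lower. Taken from counts without division by length, the shares were, in wild-type-labelled and null-labelled libraries, 93.9% and 73.7% for Dnmt1, 5.01% and 21.4% for Dnmt3a and 1.06% and 4.86% for Dnmt3b of the trio, 17.5% and 18.5% for Dnmt3b of the de novo pair, and 15.4% and 11.2% for Uhrf2 of its pair. The alternative weights longer genes more, and the direction between the groups stayed as it was.

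The replicate numbers gave no sign of pairing: deviations of same-numbered libraries from their group means correlated at 0.012, -0.003 and 0.018 across genes. With 3 libraries in each group and little spread between them beyond counting noise, this cannot exclude pairing. With the replicate number as a block, 12003 genes and 9 members were called. Within a group, counts differed by a chi-square of 1.49 to 2.15 per degree of freedom, more than sampling noise, so no pair was treated as 1 library. Such an excess does not tell separate embryos or cultures from repeated preparations of the same RNA. Log2 CPM correlated at 0.995 to 0.996 within a group, and edgeR's common coefficient of variation between replicates was 2.24%. Depth limits Dnmt3l and Tet1 most, with 4 to 14 counts in each null-labelled library.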
